A study of Solanum tuberosum and Solanum acaule with 12 samples.

Results

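The loci described here are the 18 loci of the wild potato Solanum acaule whose transcript signal was at least 4 times higher in each of 3 freezing libraries than in any of 3 control libraries. A locus is the sum of all assembled transcripts that carry the same assembly number. For each of the 18, the lowest freezing value was at least 10 and at least 4 times the highest control value, and at least 1 transcript was listed in the authors' placement table. The S. acaule table holds 70880 loci, of which 44318 have a placed transcript, and both tables of the series hold 131563 loci. Among the placed loci, 9747 had a lowest freezing value of 10 or more, and the 18 loci are 0.185% of these. The loci were chosen from their freezing and control values, so the difference between the groups is given as a description, and no test of these values is used as support for it.

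S. acaule, which is allotetraploid, was sampled as shoot explants in 2 groups with 3 biological replicates each, and messenger RNA was sequenced with strand kept. The freezing group went through a fall of 2 °C per hour that began at 22 °C and ended at -4 °C. The control group stayed in long days. The same pair of groups was sampled in the potato cultivar Atlantic, which is used here for 1 count. The labels give neither the S. acaule accession, the age of the explants nor the time spent at the lowest temperature. Nothing in the labels says whether replicates came from separate plants, so the spread between libraries may be in part technical. From the values and the table names, the signal appears to be TPM, which is per transcript length, scaled by a factor for each library. No source used here states the unit, and levels set side by side between loci rest on that reading. The table keeps no read counts and the depth is unknown.

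Plants that are cooled switch on a set of cold-regulated genes. In many species the first step is the rapid induction of CBF transcription factors, which bind a short element in the promoters of cold-regulated genes. Known products of such genes include dehydrins, other hydrophilic protective proteins, enzymes of sugar and raffinose metabolism and lipid-modifying enzymes. S. acaule is known as one of the frost-hardy wild potatoes, whereas the common potato is frost sensitive and acclimates little. Neither the identifiers of the 18 loci nor those of their gene models matched the RefSeq gene table (0 matches), so no locus can be given a gene name, a role or a place in that pathway, and the shoot label could not be checked against marker genes.

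Control replicate 3 stood apart from the other 5 S. acaule libraries. The placement table puts transcripts on chromosome names that end in 1 or 2, called chromosome sets here. The log2 ratio of set 1 to set 2 signal, taken as a median of the 13509 tested loci found on both sets, stood at -0.95 in that library, while the other 5 libraries lay between -0.08 and -0.07. Of the transcripts with signal in both other controls, 25.04% were listed at 0 in control replicate 3, compared with 9.60% in control replicate 1 and 9.56% in control replicate 2. Control means and SDs over 3 libraries include this one, and whether its material or processing differed was not tested. Without it 35 loci met the thresholds, the 18 among them by construction, since leaving out a control can only lower the highest control value.

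Together the 18 loci took up a larger part of the transcript signal after freezing. The selection fixes the direction of this and of the other changes in this paragraph, so only their sizes are described. Their summed signal was 2762, 3629 and 3000 in the 3 freezing libraries, against 372, 277 and 174 in the 3 controls. This was 0.262%, 0.375% and 0.293% of the signal of the freezing libraries, against 0.0354%, 0.0276% and 0.0191% of that of the controls. The ratio of the group means ran from 7.61 to 32.7 over the loci, with a median of 11.96. Without control replicate 3 it ran from 6.84 to 35.9, with a median of 10.4, and it was larger for 8 loci and smaller for 10. On the log2(signal + 1) scale of the fit across all loci, the median change of the 18 was 3.32, beside 0.04 over all 29331 loci tested. In bulk shoot samples, more RNA per cell and more cells of a type cannot be told apart.

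Limma called 17 of the 18 loci higher after freezing at an adjusted p under 0.05, where the background was 0.283% of all loci tested. The rule used the same contrast, so nothing is read from this count or from those that follow. The locus not called was AcauleEVm011982, whose controls were the most uneven. The 17 calls became 18 without control replicate 3, but 7 and 1 without control replicates 1 and 2, and 1, 0 and 0 without freezing replicates 1, 2 and 3. They became 0 with the replicate number as a block and 9 with no filter on low values.

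**Figure D1:**
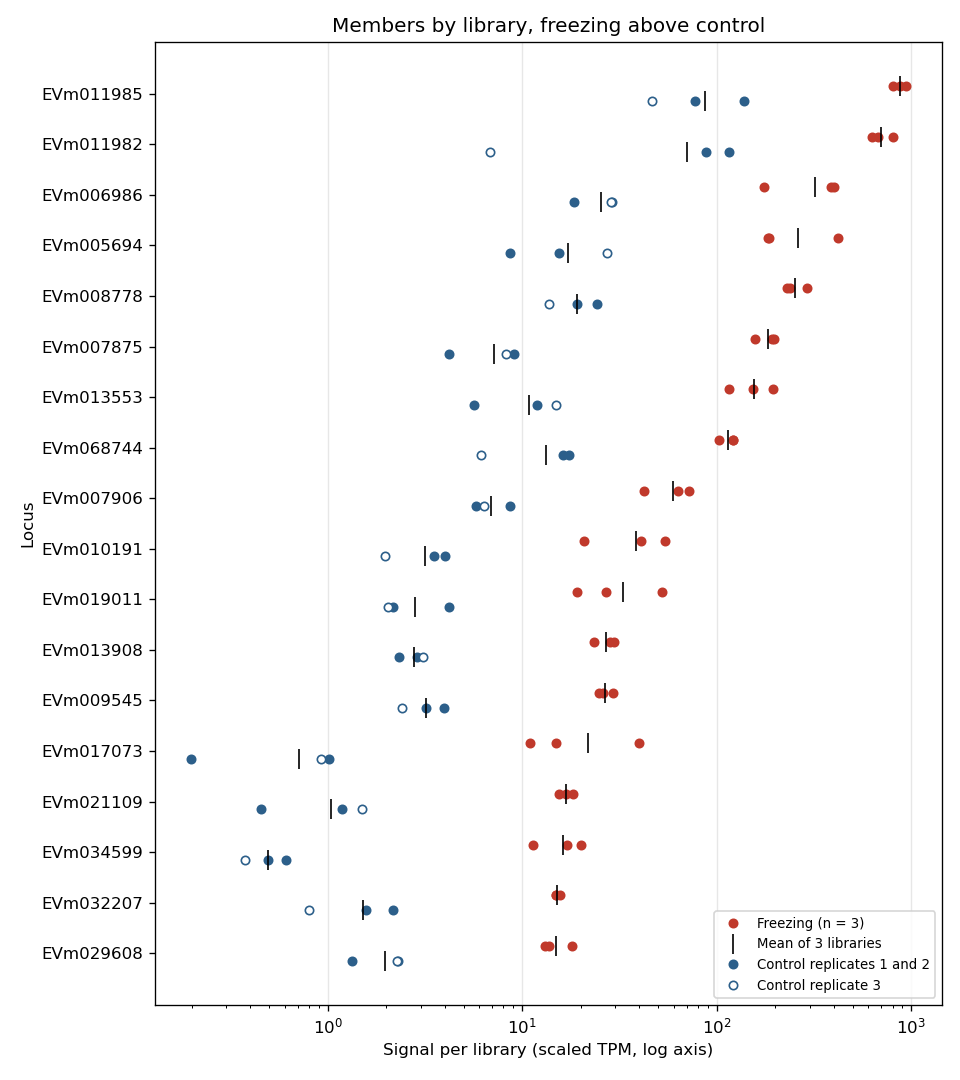
Signal of the 18 loci in each library on a log axis, freezing (red) above control (blue, with control replicate 3 open), with a bar at each mean of 3 libraries. Within each locus all freezing values lie to the right of its control values, as the selection requires, and EVm011982 shows the widest gap between control replicate 3 (6.84) and the other controls (115 and 88.3). Locus names are shortened from AcauleEVm.

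By level, the 18 loci fell into 8 with a freezing mean of at least 100 and 10 below it. The highest was AcauleEVm011985, with 804, 941 and 876 in freezing libraries, against 137, 77.1 and 46.5 in controls. AcauleEVm011982 came next, with 673, 803 and 624 in freezing libraries, against 115, 88.3 and 6.84 in controls. These were also the highest of the 18 in control, at 87.0 ± 46.3 and 70.0 ± 56.3 (SD, n = 3), so signal was present without freezing. Their freezing means were 10.04 and 9.998 times their control means, and 8.15 and 6.89 times without control replicate 3. Together these loci made up 48.0% to 53.5% of the summed signal of the 18 loci in freezing libraries, against 67.8%, 59.8% and 30.6% in controls.

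The other 6 abundant loci had control means between 7.17 and 25.3. AcauleEVm006986 had 174, 401 and 386 in freezing libraries, against 29.0, 18.4 and 28.7 in controls. AcauleEVm005694 had 186, 418 and 183 in freezing libraries, against 8.69, 15.4 and 27.4 in controls. In both, the freezing libraries differed among themselves by more than 2-fold, with replicate 2 the highest and replicate 1 low in both. Replicate 3 was high in the first locus and low in the second.

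AcauleEVm008778 was more even, with 238, 292 and 228 in freezing libraries, against 24.2, 19.1 and 13.7 in controls. AcauleEVm007875 had 158, 192 and 197 in freezing libraries, against 9.07, 4.22 and 8.23 in controls. Its lowest freezing value was 17.4 times its highest control value, the widest separation among the abundant loci. AcauleEVm013553 had 115, 194 and 154 in freezing libraries, against 5.64, 11.9 and 14.9 in controls. AcauleEVm068744 had 120.4, 121 and 103 in freezing libraries, against 16.2, 17.3 and 6.12 in controls. Freezing replicates of the last locus agreed to within 9.06% of their mean (SD), while its control replicate 3 was well below either other control.

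Among the 10 less abundant loci, 3 had freezing means between 30 and 60. AcauleEVm007906 averaged 59.4 ± 15.3 in freezing and 6.92 ± 1.49 in control libraries (SD, n = 3). AcauleEVm010191 averaged 38.6 ± 16.8 in freezing and 3.16 ± 1.06 in control libraries (SD, n = 3), and AcauleEVm019011 averaged 32.8 ± 17.4 in freezing and 2.81 ± 1.22 in control libraries (SD, n = 3). The freezing libraries of AcauleEVm019011 were the least alike of these, at 27.0, 19.1 and 52.4.

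The remaining 7 loci had freezing means between 14.99 and 27.1 and control means between 0.49 and 3.19. AcauleEVm034599 was the locus furthest above the fold limit, with 11.3, 17.0 and 19.95 in freezing libraries, against 0.492, 0.610 and 0.375 in controls. Its lowest freezing value was 18.6 times its highest control value, and its means differed by 32.7-fold. AcauleEVm017073 had 39.6, 11.0 and 14.9 in freezing libraries, against 0.198, 1.02 and 0.928 in controls. Its freezing libraries were the most uneven of all 18 loci, with an SD of 71.0% of the mean, and freezing replicate 1 stood above the other freezing libraries.

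AcauleEVm021109 had 18.2, 15.4 and 16.9 in freezing libraries, against 1.19, 0.452 and 1.49 in controls. AcauleEVm032207 had 15.6, 14.9 and 14.9 in freezing libraries, against 1.57, 2.16 and 0.803 in controls, and its freezing libraries were the most alike of all 18 loci (SD 2.64% of the mean). AcauleEVm009545 averaged 26.7 ± 2.40 in freezing and 3.19 ± 0.788 in control libraries, AcauleEVm013908 averaged 27.1 ± 3.19 in freezing and 2.77 ± 0.402 in control libraries, and AcauleEVm029608 averaged 14.99 ± 2.68 in freezing and 1.97 ± 0.546 in control libraries (SD, n = 3). Across the 18 loci the SD was a median of 15.8% of the mean in freezing libraries and 39.9% in controls. Freezing replicate 2 was the highest freezing library for 10 loci, and control replicate 3 was the lowest control for 9 and the highest for 4.

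The loci nearest to the fold limit on the inside were AcauleEVm019011, AcauleEVm007906 and AcauleEVm010191, whose lowest freezing values were 4.53, 4.93 and 5.21 times their highest control values. Just outside were AcauleEVm010076 at 3.99, AcauleEVm016370 at 3.97 and AcauleEVm022180 at 3.92. AcauleEVm010076 had 133, 261 and 139 in freezing libraries, against 12.3, 21.3 and 33.3 in controls. Without control replicate 3, which holds its highest control value, its ratio was 6.25. The floor of 10 kept out AcauleEVm051948, with 19.5, 13.1 and 9.17 in freezing libraries, against 0.482, 0.584 and 0.617 in controls. The number of loci that met the rule was 29, 39 and 35 without control replicates 1, 2 and 3, and 41, 29 and 25 without freezing replicates 1, 2 and 3.

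**Figure D2:**
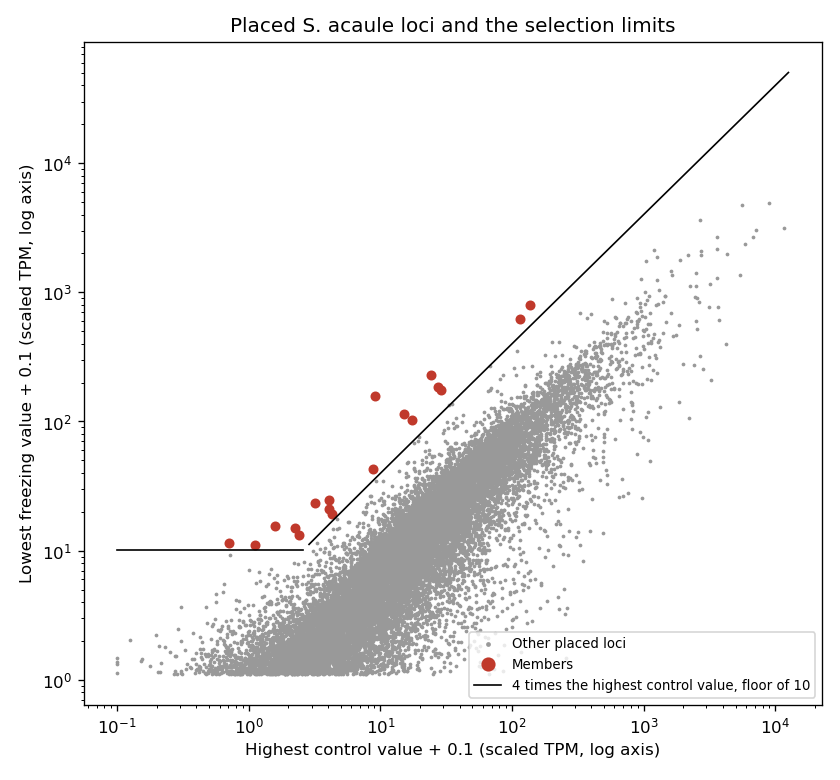
Lowest freezing value against highest control value for placed S. acaule loci with a lowest freezing value of at least 1, both plus 0.1 on log axes. The 18 loci (red) lie above the black limits, and the most abundant of them, AcauleEVm011985, is at 804 on the freezing axis and 137 on the control axis.

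The 18 loci are fewer than 18 separate places in the genome. Placed transcripts of the 18 lay on 31 gene models, and 2 pairs of loci shared a gene model, which leaves 16 groups that share none. Transcripts of AcauleEVm011985 and AcauleEVm011982 lay on gene model g25960 on chromosome 2 of set 2, at 45727780 to 45730989. AcauleEVm009545 and AcauleEVm034599 both lay on g31444 on chromosome 3 of set 2, with placed transcripts from 48833664 to 48837371. Loci of a pair can share reads and are not independent measurements. Coordinates are those of the authors' placement table, which names no genome build.

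In the pair on chromosome 2, the main transcripts were placed on different sets, both with a score of 3, whose meaning is not stated, and whether each was assigned to the right set was not tested. The main transcript of AcauleEVm011985, placed on set 2, held 99.96% of its freezing signal. The main transcript of AcauleEVm011982, placed on g22959 of set 1 at 41932913 to 41936593, held 98.9% of its freezing signal. Another locus on g22959, AcauleEVm033250, was listed at 0 in 5 libraries and at 31.1 in control replicate 3, the library in which the AcauleEVm011982 transcript was at 3.73. Summed over g22959, the values were 667, 794 and 616 in freezing libraries, against 114, 87.4 and 34.8 in controls. The sum over g25960 was 811, 949 and 884 in freezing libraries, against 138, 78.0 and 45.0 in controls. At the level of gene models, control replicate 3 therefore differed from the other controls by less than AcauleEVm011982 shows.

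Around these gene models lay a stretch of chromosome 2 in which 4 positions were higher after freezing on both sets. AcauleEVm010191 was placed 62531 bases from AcauleEVm011982 on set 1 and 52169 bases from AcauleEVm011985 on set 2. Between them on both sets lay AcauleEVm010076, the locus just outside the fold limit. On the other side lay AcauleEVm006709, which is not among the 18 loci, with 47.1, 108 and 88.0 in freezing libraries, against 8.22, 4.95 and 20.5 in controls. All freezing values of AcauleEVm006709 were above its controls, but limma did not call it (log2 fold change 2.88, SE 0.52, adjusted p = 0.0746).

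By gene model, the order on set 1 was g22958 (AcauleEVm006709, with another locus), g22959, g22966 (AcauleEVm010076) and g22967 (AcauleEVm010191), with means 6.20, 8.80, 6.93 and 8.63 times higher after freezing. On set 2 the same loci followed in the same order as g25959, g25960, g25966 and g25967, with means 15.5, 10.1, 6.61 and 4.29 times higher after freezing. On g25959 the values were 9.71, 29.4 and 18.1 in freezing libraries, against 1.91, 1.24 and 0.549 in controls. On g25966 the values were 61.6, 133 and 66.4 in freezing libraries, against 7.10, 10.6 and 21.7 in controls. On these 8 gene models no control library reached the lowest freezing library. The positions were chosen with this contrast known, so nothing is read from that. Limma called none of g22958, g25959, g22966 and g25966 (adjusted p = 0.162, 0.0889, 0.124 and 0.131). Without control replicate 3 these were 0.0296, 0.0548, 0.0463 and 0.0335. Summed as a locus, AcauleEVm010076 was called (limma adjusted p = 0.0452). The values of g22967 and g25967 leave out transcripts t4 and t5 of AcauleEVm010191, which held 43.6% and 19.0% of its freezing signal.

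Of the loci that lay between these positions on both sets, limma called none of the 3 given here. AcauleEVm013467, next to g22959 and g25960, averaged 45.5 ± 8.002 in freezing and 30.2 ± 10.2 in control libraries (SD, n = 3; limma adjusted p = 0.384). AcauleEVm003485 averaged 23.7 ± 10.2 in freezing and 30.2 ± 3.23 in control libraries (SD, n = 3; limma adjusted p = 0.583). AcauleEVm060982 was abundant and uneven, with 406, 1183 and 567 in freezing libraries, against 298, 1132 and 85.2 in controls (limma adjusted p = 0.621). Its set 1 gene model, g22961, was at 0.121 in control replicate 3 and at 231 and 771 in the other controls. Within 100 kb of g22959 on set 1, 6 of 17 tested gene models had all freezing values above all controls, and around g25960 on set 2 it was 5 of 17. Both counts include 2 gene models that carry one of the 18 loci, which the rule chose on this contrast. Over all 29050 gene models tested the share was 13.0%, and nothing is read from the counts beside it.

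**Figure D3:**
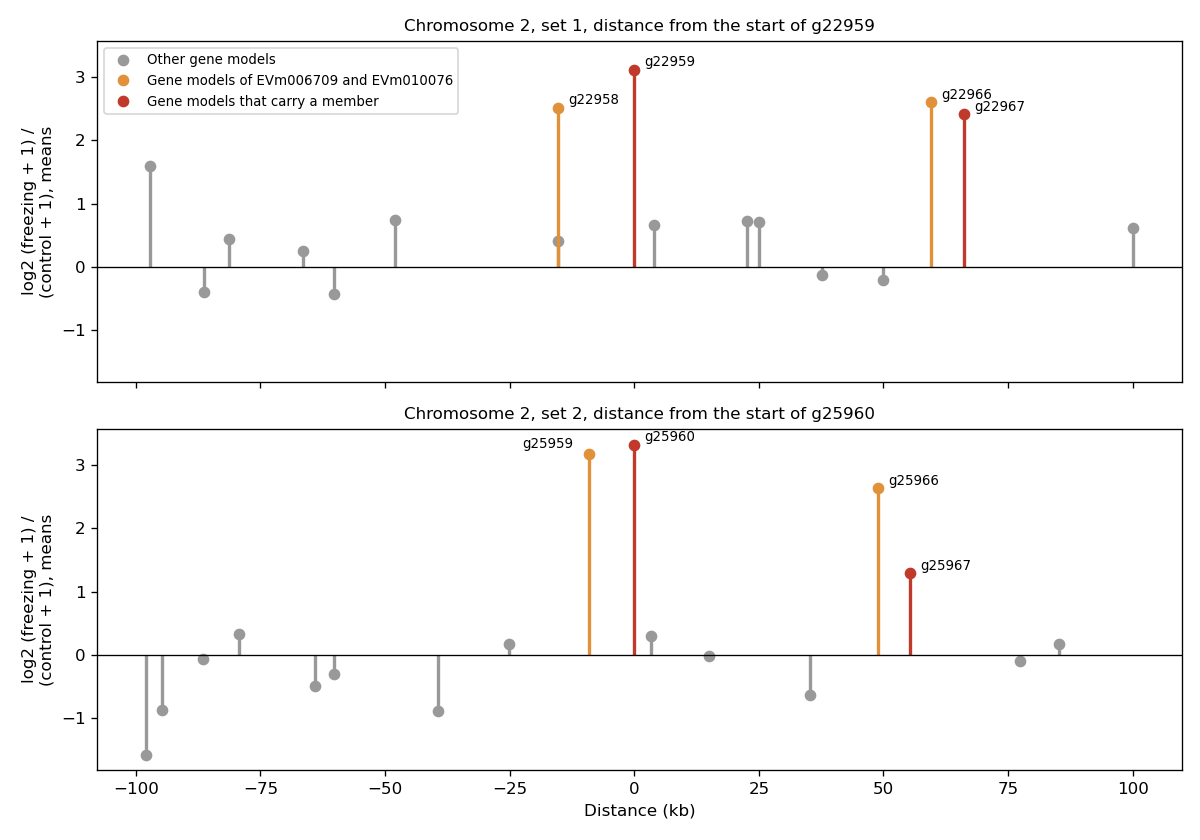
Log2 ratio of the freezing to the control mean, each plus 1, for tested gene models within 100 kb of g22959 (set 1, top) and g25960 (set 2, bottom), against distance in kb. On both sets 2 gene models that carry one of the 18 loci (red) and 2 of AcauleEVm006709 and AcauleEVm010076 (orange) lie above the others (grey). Means of the coloured ones were 6.20 to 8.80 times higher on set 1 and 4.29 to 15.5 times higher on set 2. Among the grey, g22947 on set 1 was 3.67 times higher. Grey g25946 on set 2 lay at -1.58, a larger shift, downward, than that of g25967 at 1.29.

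The neighbourhood was then examined with gene models that carry none of the 18 loci. Within 100 kb of the 31 gene models lay 224 tested gene models. Of these, 45 (20.1%) had all freezing values above all controls, where the background was 13.0% of all gene models tested, and 17 (7.59%) had all freezing values below all controls, where the background was 9.25%. Without control replicate 3 the first share was 26.8%, beside 20.3% of all gene models. Whether these shares differ from the background was not tested. At least 4 times the highest control value was reached by 2 neighbours, where the background was 0.255% of all gene models tested. One was g25959, and the other was g4187 (AcauleEVm008449), which overlaps the gene model of AcauleEVm068744 on chromosome 10 of set 2 and can share its reads. Gene model g4187 had 2.52, 1.71 and 3.66 in freezing libraries, against 0.129, 0.0440 and 0.0800 in controls. Outside the chromosome 2 stretch 36 of 184 neighbours (19.6%) had all freezing values above all controls.

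Limma called 1 of the 224 neighbours higher and 1 lower, beside 0.0448% of all gene models called higher. The higher one was g36828 (AcauleEVm058644) on chromosome 4 of set 2 at 54096600 to 54097413, 41698 bases from g36827, the gene model of AcauleEVm032207. It had 30.1, 41.6 and 40.5 in freezing libraries, against 6.65, 7.69 and 5.50 in controls, which was a rise of 2.33 on the log2 scale (SE 0.24, limma adjusted p = 0.0465). The call was lost without control replicates 1 or 2, without any freezing replicate and with a pseudocount of 0.1 (limma adjusted p = 0.0540), and held without control replicate 3 (limma adjusted p = 0.0224; range over the alternatives 0.0224 to 0.311). Fitted with replicate numbers as a block, it was also lost (limma adjusted p = 0.238).

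The same gene models also carried transcripts of 10 other loci, of which 7 were tested and 6 had all freezing values above all controls, where the background was 13.4% of all loci tested. AcauleEVm037901, on g21186 with AcauleEVm007906, had 6.48, 6.73 and 6.61 in freezing libraries, against 1.15, 1.095 and 1.33 in controls. It rose by 1.80 on the log2 scale (SE 0.24, limma adjusted p = 0.0420) and was the only one of the 7 that limma called. That call was lost with the replicate block, with a pseudocount of 0.1 and without control replicate 1 or 2 or any freezing replicate (limma adjusted p = 0.0251 to 0.245 over the alternatives). Without control replicate 3, 3 of the 7 were called. AcauleEVm031439, on g23094 with AcauleEVm007875, had 1.94, 3.26 and 5.88 in freezing libraries, against 0.0220, 0.0200 and 0.0250 in controls (limma adjusted p = 0.0614, and 0.0465 with a pseudocount of 0.1). AcauleEVm005611, on g53940 with AcauleEVm005694, overlapped between the groups, at 15.7, 22.0 and 47.9 in freezing libraries and 12.4, 15.6 and 47.2 in controls. Its replicate 3 was the highest in both groups. Loci on one gene model can share reads with the 18 loci, so they are no independent evidence of the same change.

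Most of the loci had transcripts placed on both chromosome sets. Of the 18, 11 (61.1%) had transcripts on both sets, close to the 61.8% of the 22314 tested loci with a placement, while 2 were on set 1 only and 5 on set 2 only. For all 11 the sets bore the same chromosome number. The set copies leave out unplaced transcripts and those placed on both sets. In AcauleEVm013553 an unplaced transcript held 62.7% of the freezing signal. In AcauleEVm010191 an unplaced transcript held 43.6% and one placed on both sets 19.0%. In AcauleEVm011982 a single set 1 transcript held 98.9%. The set 1 transcripts of all 11 loci were higher in each freezing library than in any control, where the background was 14.5% of set 1 copies, and the set 2 transcripts were so for 10 of 11, where it was 9.80% of set 2 copies. The rule used the same contrast for their sum, so nothing is read from these counts. Without control replicate 3 all 22 copies were higher, beside 18.2% of all set 1 copies and 19.6% of all set 2 copies.

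The exception was the set 2 copy of AcauleEVm013553 on g46810 of chromosome 6, with 9.99, 10.2 and 7.13 in freezing libraries, against 0.109, 0.539 and 10.8 in controls. Its set 1 copy on g44028 had 36.0, 63.7 and 45.8 in freezing libraries, against 1.90, 4.27 and 0 in controls. Control replicate 3 was thus the highest library for the set 2 copy and was listed at 0 for the set 1 copy. A like shift of control replicate 3 was seen in AcauleEVm007906. Its set 1 copy had 36.0, 28.7 and 17.9 in freezing libraries, against 4.68, 2.82 and 0.0470 in controls. Its set 2 copy had 36.4, 34.8 and 24.5 in freezing libraries, against 3.93, 2.99 and 6.27 in controls. In control replicate 3 the locus sum of AcauleEVm007906 was 6.32, between the other controls (8.62 and 5.81). That of AcauleEVm013553 was 14.9, above the other controls (5.64 and 11.9), and it includes an unplaced transcript. The part of this library's shift between sets in the selection of loci was not tested.

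Other loci gave closer values on both sets, with a smaller shift in control replicate 3. In that library the log2 ratio of set 1 to set 2 was -0.63 for AcauleEVm008778 and -0.65 for AcauleEVm006986. Each was the lowest of the 6 libraries for its locus. AcauleEVm008778 had 113, 136 and 108 on set 1 and 125, 157 and 120.1 on set 2 in freezing libraries, against 9.98, 8.25 and 5.16 on set 1 and 14.2, 10.9 and 8.55 on set 2 in controls. AcauleEVm006986 had 87.6, 177 and 165 on set 1 and 86.6, 224 and 221 on set 2 in freezing libraries, against 15.6, 8.64 and 11.0 on set 1 and 13.4, 9.73 and 17.7 on set 2 in controls. In both loci each copy was higher in every freezing library than in any control, and the uneven freezing libraries of AcauleEVm006986 were uneven in the same way on both sets. AcauleEVm021109 and AcauleEVm009545 were carried mostly by set 2. On set 2 AcauleEVm021109 averaged 12.9 ± 0.903 in freezing and 0.858 ± 0.556 in control libraries, and on set 1 it averaged 1.85 ± 0.994 in freezing and 0.0933 ± 0.162 in control libraries (SD, n = 3). AcauleEVm009545 averaged 24.8 ± 1.89 on set 2 and 1.94 ± 0.620 on set 1 in freezing libraries (SD, n = 3). AcauleEVm013908 leaned the other way, with 19.8 ± 0.966 on set 1 and 7.30 ± 2.40 on set 2 in freezing libraries (SD, n = 3).

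For the 11 loci, set 1 stood to set 2 at a median log2 ratio of 0.02, -0.21 and -0.15 in the freezing libraries and 0.20, -0.16 and -0.63 in the controls. With only transcripts placed at a score of 40, 3 of the 11 loci kept both sets. The median over loci of their mean log2 ratio across all libraries was then 1.07, against -0.22 for the 11. All transcripts of AcauleEVm008778 were placed at a score of 2. The lowest of the library medians was control replicate 3, as over all tested loci. The ratio of an individual locus was lowest in control replicate 3 for 6 of the 11, beside 60.9% of all tested loci with both copies. How reads shared between similar copies were divided is not given in the sources used here.

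**Figure D4:**
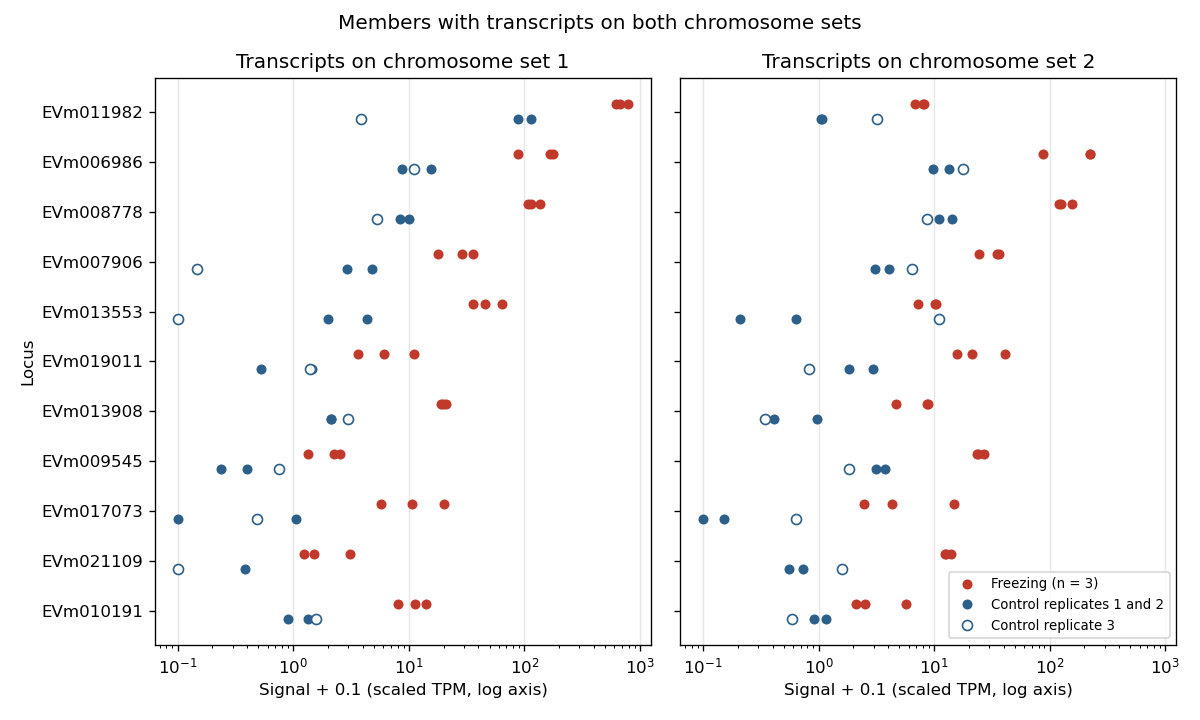
Signal plus 0.1 on log axes for the set 1 (left) and set 2 (right) transcripts of the 11 loci with both, freezing (red) above control (blue, with control replicate 3 open). Control replicate 3 lies far left of the other controls on set 1 for EVm011982, EVm007906 and EVm013553, and on set 2 of EVm013553 it reaches 10.8, among the freezing values.

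Most transcripts within the loci were higher after freezing, but not to the same extent. The 18 loci comprised 99 assembled transcripts, of which 63 had a mean signal of at least 1 over the 6 libraries. Of the 63, 57 had all freezing values above all controls, where the background was 13.4% of transcripts at that level, and 38 also differed by at least 4 times between the lowest freezing and the highest control value, where the background was 0.841%. The loci were selected on the sum of these transcripts and the filter favours those high after freezing, so the counts are a description. Without control replicate 3 the count was 60, beside 17.8% of all transcripts at that level.

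In AcauleEVm008778 the transcripts moved unequally. Transcript t1 had 114, 141 and 107 in freezing libraries, against 5.25, 5.37 and 5.55 in controls. Transcript t2 of the same locus, placed on the same gene model, had 11.0, 15.5 and 13.0 in freezing libraries, against 8.98, 5.50 and 2.995 in controls. Transcript t1 made up 47.7% of the locus after freezing and 28.3% in control, where t3 led. In AcauleEVm009545 transcript t8 held 74.97% of the freezing signal, against 45.6% of the control signal, while t7 overlapped between the groups, at 3.80, 1.38 and 1.91 in freezing libraries and 1.15, 1.57 and 0.151 in controls.

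The leading transcript was the same in both groups for 12 loci and another in control for 6. The 6 were AcauleEVm005694, AcauleEVm007906, AcauleEVm008778, AcauleEVm013908, AcauleEVm017073 and AcauleEVm021109. Of the 12 others, 5 had only 1 transcript with a mean signal of at least 1. In AcauleEVm017073 and AcauleEVm021109 the leading control transcripts averaged only 0.296 and 0.590 in controls. In AcauleEVm005694 the leading transcript in control, t1, had 5.06, 17.9 and 4.49 in freezing libraries, against 0.504, 0.00500 and 14.8 in controls. Nearly all of its control signal was in control replicate 3. In AcauleEVm007906 the leading control transcript, t1, had 3.386, 2.503 and 4.125 in controls, against 4.682, 2.824 and 0.047 for t4, which led in freezing. Transcript t4 was thus the higher in control replicates 1 and 2, and t1 led only through control replicate 3. The leading transcript in freezing held a larger share of its locus after freezing than in control for 14 loci and a smaller share for 2, while 2 loci had 1 transcript only. It was chosen for the highest freezing mean, which favours a larger freezing share, so nothing is read from these counts.

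**Figure D5:**
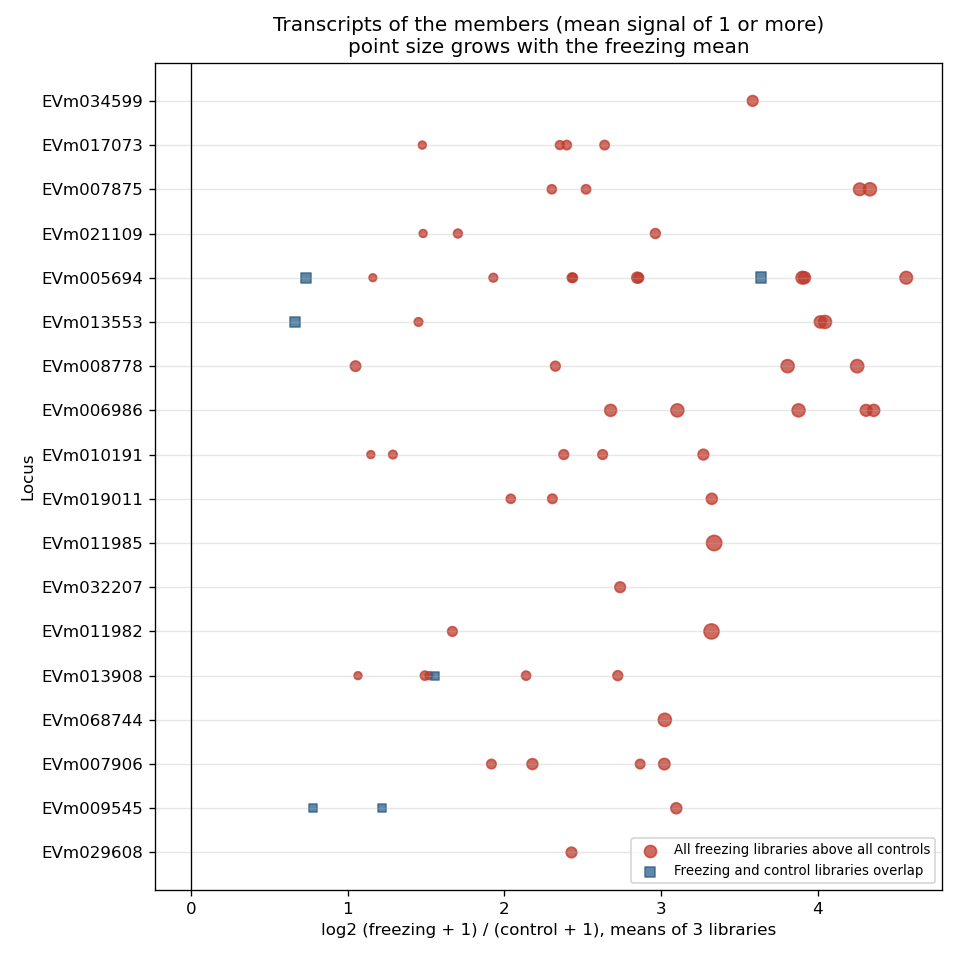
Log2 ratio of the freezing to the control mean, each plus 1, for the 63 transcripts with a mean signal of at least 1, by locus; point size grows with the freezing mean. All 63 lie right of 0, and the 6 whose libraries overlap between the groups are blue squares, in AcauleEVm005694, AcauleEVm013553, AcauleEVm013908 and AcauleEVm009545.

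In AcauleEVm017073 the signal came from several gene models close together. The placed transcripts lay on g27503 and g27506 on chromosome 3 of set 1, from 36964259 to 36984113, and on g30500 and g30503 of set 2, from 38138165 to 38155721. On g27506 the signal was 19.995, 5.52 and 10.6 in freezing libraries, against 0, 0.966 and 0.389 in controls. On g30500 it was 11.1, 3.04 and 0.867 in freezing libraries, against 0, 0 and 0.254 in controls. On g30503 it was 3.62, 1.18 and 1.49 in freezing libraries, against 0, 0.0520 and 0.285 in controls. All 3 gene models were highest in freezing replicate 1. AcauleEVm021109 likewise covered g49851 and g49852 on chromosome 7 of set 2, with means of 8.72 ± 1.47 and 4.18 ± 0.577 in freezing libraries and 0.268 ± 0.276 and 0.590 ± 0.306 in control libraries (SD, n = 3). Similar gene models in a row can split reads between them, so the value of any 1 of them is uncertain.

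By position, 6 of the 18 loci lay on chromosome 2, on which 10.9% of the tested loci with a placement lay. These were AcauleEVm007906, AcauleEVm010191, AcauleEVm011982, AcauleEVm011985, AcauleEVm007875 and AcauleEVm029608, and 3 of them belong to the stretch described above. AcauleEVm007875 at 43179668 to 43184669 and AcauleEVm029608 at 43750938 to 43753890 followed further along set 1. Chromosome 3 held 3 of the loci and chromosome 5 held 2, AcauleEVm008778 and AcauleEVm013908. Chromosomes 1 and 9 held none, and each of the other chromosomes held 1. The loci had a median of 4 assembled transcripts, from 1 to 16, beside 6 over tested loci with a placement. Their longest placed transcript spanned a median of 3082 bases of genome, introns included, beside 3979, and their median control mean was 5.05, beside 10.5. The rule used the control values, so nothing is read from this last difference. The placement score, whose meaning is not stated, was 40 for 41 of the 82 placed transcripts and 3 or less for the other 41.

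In Atlantic, whose table was normalized separately and shares no identifiers, the same thresholds were met by 21 of 11001 placed loci with a lowest freezing value of 10 or more. Whether any of these corresponds to one of the 18 S. acaule loci was not analysed here.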

How the data were processed

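The authors deposited 1 table per species with 1 signal value per assembled transcript and library. From the values and the table names each value reads as a TPM that was scaled by TMM. Totals of the S. acaule libraries ran from 912356 to 1052633, the depth is unknown, and precision rests on 3 replicates per group. Per the submitters' processing notes Trimmomatic 0.39 and DESeq2 were used, the latter with no role given. The assembler, abundance estimator, aligner and build are not given in sources used for this work. The deposited placement table, without a header, gives gene model, chromosome, start, end and a score from 1 to 40.

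Transcripts were summed to loci, and those with placements on 1 gene model only to gene models, with pandas 2.3.3. Limma 3.58.1 (R 4.3.3) was fitted to log2(signal + 1) of loci or gene models that reached 1 in 3 or more libraries, with a mean-variance trend, two-sided, with Benjamini-Hochberg adjustment over all tested. Fold changes on that scale understate low loci. The limma step was tested on simulated data. Their spread was taken from the freezing libraries only, so that test does not cover the departure of control replicate 3. The members, lists and named loci were chosen with earlier results of these data known. Named loci were the 10 of largest ratio of lowest freezing to highest control value, the 10 of highest freezing mean, the 3 on either side of the fold limit and members within 100 kb of each other; all 18 members were then described. Neighbours, transcripts and other loci on the same gene models were added after seeing the data. Alternatives were other thresholds, filters, pseudocounts, quantile normalization, a block for the replicate number and leaving out each library. All value columns were matched to samples, with 0 left over.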

Additional observations from a re-analysis of the deposited data

How the results depend on the processing

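The 18 loci became 40 with a fold of 3, 11 with a fold of 6, 30 with a floor of 5 and 25 to 41 with a library left out. Taken one by one, 47 placed transcripts of 39 loci met the thresholds, and 13 of the 18 loci were among the 39. Counts with a floor of 20 (12), placed transcripts only (17) and no placement needed (22) stayed within 1.5 times. The 83 loci that limma called higher became 51 when the pseudocount was 0.1, 14 without any filter on low values and 0 with the replicate block (5104 at an unadjusted p under 0.05), and 1 to 316 with a library left out. Of the 18 loci, 17 were called, 9 with no filter, 0 with the block and 0 to 18 with a library left out. Their median log2 change of 3.32 was 3.56 with a pseudocount of 0.1 and 3.02 to 3.36 with a library left out. No locus changed direction under any of the 11 alternatives of the fit. The selection required every freezing value to be at least 4 times every control value, so nothing is read from this. With a placement score of 40 only, 3 of the 11 loci kept transcripts on both sets, with a median log2 ratio of set 1 over set 2 of 1.07, against -0.22 for the 11; it was -0.30 to -0.11 with a library left out. The 1 neighbour called higher became 0 with a pseudocount of 0.1 or the block and 0 to 5 with a library left out, and the 1 other locus on the same gene models became 0 with the block and 0 to 3 with a library left out; these alternatives were chosen after seeing the data. Deviations of same-numbered libraries correlated at 0.28, 0.27 and 0.04. The numbers were used as a block only in an alternative, because the labels do not say that they pair libraries. The column names give same-numbered control and freezing libraries a shared code, whose meaning is not stated. Whether same-numbered libraries were paired is not known. Causes of these shifts were not tested. Depth is unknown, so no counting error can be given for the low values.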

Other observations

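The thresholds on signal were also met by 4 loci with no transcript in the placement table used here. AcauleEVm007635 had 225, 343 and 327 in freezing libraries, against 8.58, 7.92 and 10.7 in controls, a separation of 21.1 times between the lowest freezing and the highest control value that is wider than that of any of the 18 placed loci. AcauleEVm043573 averaged 59.9 ± 22.2 in freezing and 2.63 ± 1.39 in control libraries (SD, n = 3). AcauleEVm039214 averaged 17.6 ± 3.74 in freezing and 0.772 ± 0.547 in control libraries, and AcauleEVm036483 averaged 15.4 ± 3.30 in freezing and 1.37 ± 1.05 in control libraries (SD, n = 3).

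Over all transcripts, 17343 were at 1 or more in control replicate 3 and at 0 in both other controls, beside 554 for control replicate 1 and 354 for control replicate 2 counted the same way. Among the 99 transcripts of the 18 loci there were 2 such transcripts for control replicate 3 and 0 for either other control. The rule limits the control values of these loci and no shares are given for these counts, so nothing is read from them. Conversely, of the 54 transcripts of the 18 loci with signal in both other controls, 7 were listed at 0 in control replicate 3, and the same count of 7 of 54 held for control replicate 1. Each was 12.96%, where the background over all transcripts was 25.04% for control replicate 3 and 9.60% for control replicate 1. The loci were selected on their control values, so nothing is read from these shares.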
